A study of Mus musculus with 2 samples.

Results

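Mir33, Mir122 and Mir378a, microRNAs (miRNAs) known for their part in lipid and energy metabolism, were measured in mouse lung at birth. They were looked up by gene identifier and are 3 of the 1973 miRNA gene rows of the small RNA sequencing tables. Mir33 and Mir122 were read from reads on their own strand. Mir378a has no row, and its reads were taken from the opposite strand of the row Gm25301, which covers the same place. That row was chosen for holding reads there, and the members were chosen with earlier results of these data known. Their choice was therefore not blind to level. The lungs came from B6NCrl mice on postnatal day 0, with no treatment and no altered allele named in the labels. There is 1 group of 2 libraries, each made from the 2 lungs of 1 pup of the same pregnancy (pup 1 for replicate 1, pup 3 for replicate 2), and the sex was not collected. The labels give a single donor record for both, so the independence of the animals rests on the pup numbers alone. Without another tissue, age or treatment, levels, their order and the difference between the libraries are what the data can show.

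A miRNA is cut from a hairpin precursor and guides the silencing complex to mRNAs that match its seed, bases 2 to 8 of the mature strand. Mir33 sits inside Srebf2, the gene for the transcription factor that switches on cholesterol synthesis and uptake, and it represses Abca1, the pump that exports cholesterol from cells. Mir122 is the dominant miRNA of hepatocytes, where it affects cholesterol and fatty acid metabolism. Mir378a sits inside Ppargc1b, the gene for a coactivator of mitochondrial genes and fatty acid oxidation, and it is abundant in muscle and brown fat. The newborn lung is itself a lipid-making tissue, because its type II cells secrete surfactant.

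The Mir33 sequences are shown beside those of the miR-103 and miR-107 strands, which also come from introns of metabolic genes and carry another seed. They are from RefSeq on GRCm38.p6. The hairpin of 69 bases lies on the plus strand at chr15:82198122-82198190, and its capitals mark both mature arms. In the mature strands the capitals mark the seed.
Mir33 hairpin: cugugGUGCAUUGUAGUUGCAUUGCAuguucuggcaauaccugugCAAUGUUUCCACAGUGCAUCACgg
miR-33-5p: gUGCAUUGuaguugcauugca
miR-33-3p: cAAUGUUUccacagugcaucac
miR-103-3p: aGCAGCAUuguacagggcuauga
miR-107-3p: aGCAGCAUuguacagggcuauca
Of 1738 mature mouse entries in the RefSeq table used here, 0 others carry the seed of either Mir33 arm. A seed held by no other entry is common, at 68.0% of the entries. In contrast, miR-103-3p and miR-107-3p, from introns of the pantothenate kinase (coenzyme A synthesis) genes Pank1, Pank2 and Pank3, share a seed and most of their other bases. Their reads can therefore fit more than 1 gene, whereas Mir33 shares no 20-base stretch with another miRNA gene. Of the 3 members, 1 had an entry in that table, and no sequence of the others is shown.

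Mir33 (ENSMUSG00000065465.1) lies in intron 16 of 19-exon Srebf2-201, the principal transcript, in the direction of its host and 335 bases into an intron of 1848 bases. In replicate 1, 212 reads were counted on it, a level of 46.8 CPM, where CPM is the number of reads per 1000000 own-strand reads on miRNA genes (exact Clopper-Pearson 95% interval 40.7 to 53.5). In replicate 2 there were 331 reads, or 61.0 CPM (54.6 to 67.9). The library of pup 3 was thus the higher one, and the intervals did not overlap. The mean was 53.9 ± 10.1 CPM (SD, n = 2). Every read of this row was in the column taken as its own strand, that of Srebf2, with 0 in the other in both libraries, which allows up to 1.42% and 0.906% of its reads. Reads of both arms are counted together, so the share of miR-33-5p and miR-33-3p is not known. The intervals and these limits cover counting error only, since PCR copies are not independent molecules.

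Mir122 (ENSMUSG00000065402.1), on the plus strand of chromosome 18 from 65248861 to 65248926 (GRCm38), overlaps an exon of the lincRNA AC157910.3 in the GENCODE M21 annotation. The nearest protein-coding genes are Alpk2, 16603 bases away, and Nedd4l, 31033 bases away. It had 208 reads in replicate 1, or 45.9 CPM (95% interval 39.9 to 52.6), and 288 reads in replicate 2, or 53.1 CPM (47.1 to 59.6). The value was again higher in the library of pup 3, but the intervals overlapped. The mean was 49.5 ± 5.08 CPM (SD, n = 2), well over the 0.662 and 0.553 CPM that a count of 0 allows in replicates 1 and 2. Of its own reads, 0 were on the opposite strand in either library.

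Mir378a lies on the minus strand of chromosome 18 from 61397835 to 61397900, in the first intron of Ppargc1b and in the direction of that gene. The row Gm25301 (ENSMUSG00000093026.1) spans 61397813 to 61397925 on the plus strand, antisense to the host. All 66 bases of Mir378a fall inside its 113 bases, with 22 and 25 bases to spare. At Gm25301, 12725 reads lay on the opposite strand in replicate 1, or 2807 CPM (95% interval 2759 to 2856). In replicate 2 there were 17754, or 3272 CPM (3224 to 3320). The intervals treat these reads as a share of the own-strand total, of which they are not a part. The mean was 3040 ± 329 CPM (SD, n = 2), and replicate 2 was the higher again, with no overlap of the intervals.

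**Figure D1:**
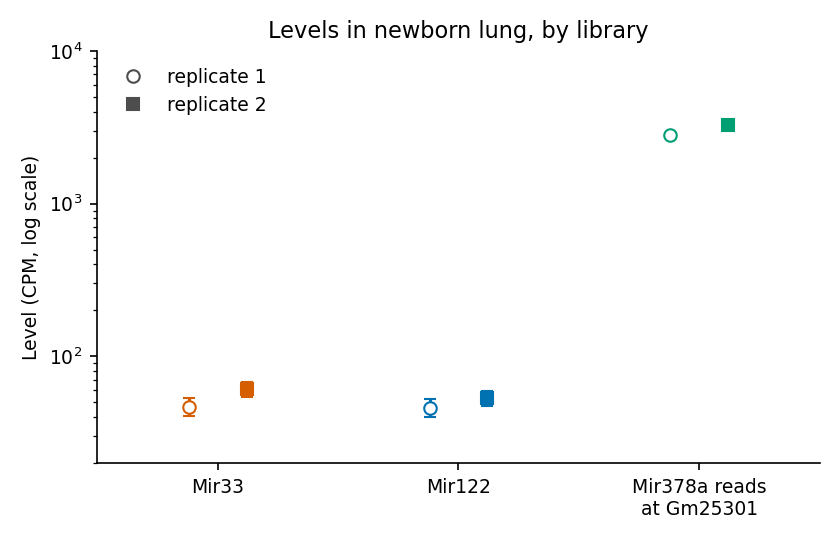
Levels of Mir33, Mir122 and the Mir378a reads at Gm25301 in CPM on a log axis. Open circles are replicate 1 and filled squares replicate 2, each 1 library, with exact 95% counting intervals that are smaller than the symbols for Mir378a. Mir33 and Mir122 sit between 45.9 and 61.0 CPM, and the Mir378a reads at 2807 and 3272 CPM.

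The reads at Gm25301 were all in 1 of the strand columns. The row was chosen for holding its reads in the column taken as the opposite strand, so the strand is a description and not a finding. The own-strand column held 0 reads in both libraries. A count of 0 allows up to 0.0236% and 0.0169% of the row's reads there in replicates 1 and 2. A ranking of own-strand reads alone does not hold Mir378a. The Gm25301 reads made up 15.2% and 16.4% of all opposite-strand reads on miRNA genes in replicates 1 and 2.

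Further rows held reads on the opposite strand. At least 10 opposite-strand reads in each library were found in 14 of the 1973 rows, and in 12 of them a miRNA without a row of its own overlaps on that strand. In 10 rows more than 90% of the reads were on the opposite strand in both libraries. By mean number of opposite-strand reads, Gm25301 was in place 2 at 15240, between Mir497b at 15762, over Mir497, and Gm25927 at 14768, over Mirlet7e. Gm24083, over Mir191, followed at 13248 and Gm25252, over Mir376a, at 9666. Over all rows, 32 meet a miRNA without a row on the other strand, and 16 of these had at least 1 opposite-strand read in each library. On this reading of the strand columns, Mir378a is 1 of several abundant lung miRNAs that the tables hold only under an antisense name. The overlap was also used to reach that reading, so the 12 rows do not test it.

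**Figure D2:**
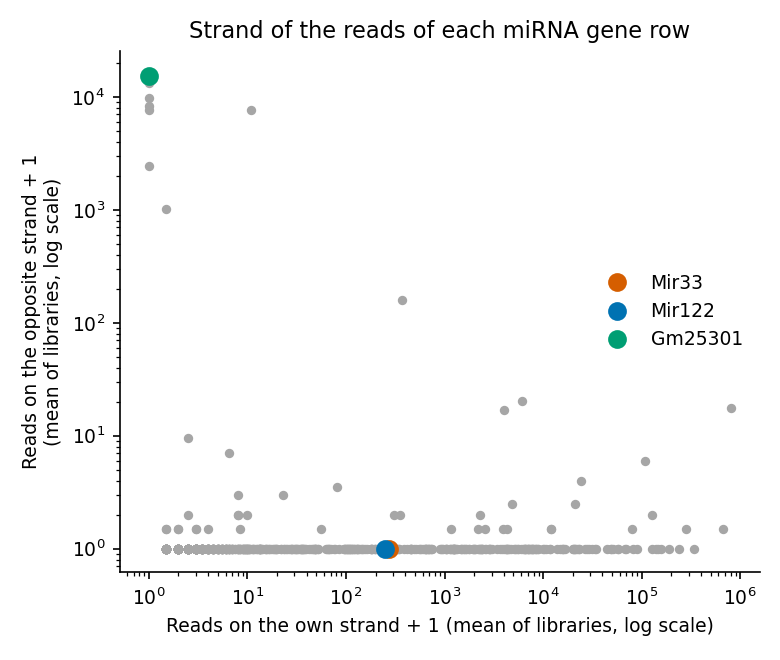
Mean reads over both libraries on the own strand (x axis) and on the opposite strand (y axis) of each miRNA gene row, both plus 1 and on log axes. Each point is a row with at least 1 read. Mir33 and Mir122 lie on the lower edge with 0 opposite-strand reads, and Gm25301 lies at the top left with 0 own-strand reads.

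Mir378a stood far above the other members in both pups. Its reads exceeded those of Mir122 by log2 ratios of 5.93 and 5.95 in replicates 1 and 2, a mean of 5.94 ± 0.0078 (SD, n = 2) or 61.4-fold. They exceeded those of Mir33 by 5.91 and 5.75, a mean of 5.83 ± 0.11 or 56.7-fold. Both differences were many times the spread between the libraries. That spread cannot show a bias between sequences that both libraries share, so these are ratios of reads and not of molecules. Mir33 and Mir122, in contrast, could not be told apart. Their log2 ratio was 0.03 in replicate 1 and 0.20 in replicate 2, with a mean of 0.11 ± 0.12, and their counting intervals overlapped in each library. These ratios carry no p, since flipping the signs of 2 libraries exactly, two-sided, cannot give a p under 0.5. Levels were not divided by length, because a read here stands for a whole mature strand.

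Among the 322 features with at least 10 reads in each library (308 own-strand rows and the 14 opposite-strand rows), the Mir378a reads held rank 45, above 86.0% of them. Mir33 held rank 202 and Mir122 rank 207, above 37.3% and 35.7%. The median feature stood at 149 CPM, so that Mir33 reached 36.3% and Mir122 33.3% of it. The members of the order next to each were close. Above Mir33 stood Mir377 at 55.2 ± 16.8 CPM and Mir125b-1 at 54.7 ± 1.54 CPM, and below it Mir137 at 53.4 ± 3.45 CPM and Mir30c-2 at 53.1 ± 2.07 CPM (SD, n = 2). Mir122 lay between Mir155 at 52.1 ± 7.17 CPM and Mir194-2 at 50.0 ± 9.47 CPM above it, and Mir679 at 49.4 ± 0.971 CPM and Mir153 at 48.5 ± 11.0 CPM below it. None of these neighbours differed from its member by more than the member's SD, so the order within this stretch is not resolved. Mir30c-2 and Mir194-2, at least, hold a 20-base stretch shared with another miRNA gene. Reads that fit several places are in no row, so such levels can be too low, and the ranks rest on counted reads only.

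Next to the Mir378a reads stood Mir106b at 3136 ± 445 CPM and Mir27b at 3080 ± 247 CPM above, and Mir541 at 2988 ± 377 CPM and Gm25927 at 2952 ± 210 CPM below (SD, n = 2). Here too the differences were within the SD. Mir27b also holds a shared 20-base stretch, so its level can be too low. The levels most like those of Mir378a in both libraries, by Euclidean distance of log2(CPM + 1), were those of Mir27b at 0.050, Mir106b at 0.077 and Gm25927 at 0.077. For Mir33 they were Mir137 at 0.17, Mir122 at 0.20 and Mir30c-2 at 0.21, and for Mir122 they were Mir679 at 0.12, Mir137 at 0.16 and Mir30c-2 at 0.17. With 2 libraries of 1 tissue, likeness here means only a similar level.

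**Figure D3:**
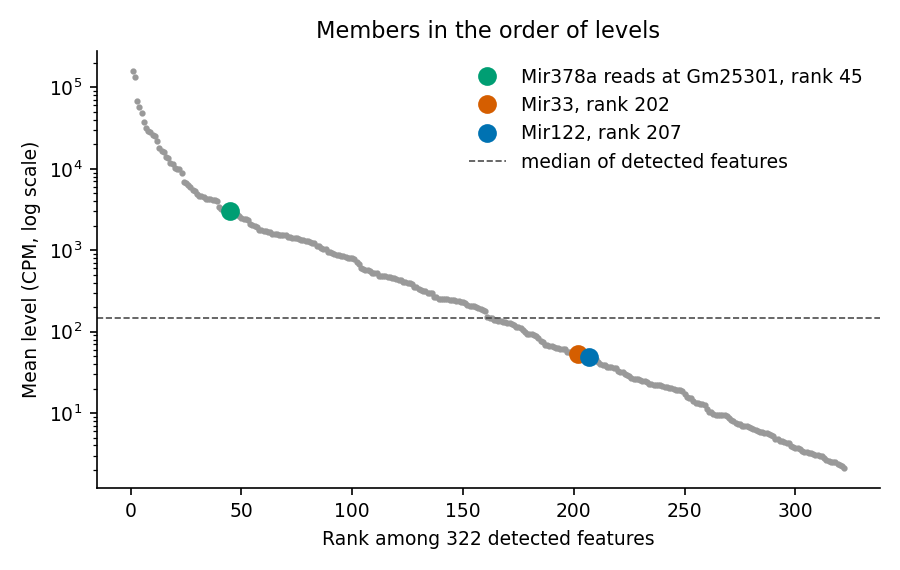
Mean level in CPM (log axis) of the 322 detected features against their rank, 1 point per feature, with the dashed line at their median of 149 CPM. The Mir378a reads at rank 45 lie above the line, and Mir33 at rank 202 and Mir122 at rank 207 lie next to each other below it.

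The libraries of the pups were then compared for each member. Mir33 was higher in replicate 2, at a log2 ratio of 0.38 or 1.30-fold (p 0.00758 in the two-sided exact binomial test, adjusted by Benjamini-Hochberg over 392 features). The Mir378a reads were higher by 0.22 on the same scale, or 1.17-fold (adjusted p 5.92e-39, same exact test). Mir122 was higher by 0.21, or 1.16-fold, which did not pass (adjusted p 0.217, exact). So 2 of the 3 members passed, both of them higher in replicate 2. Over all tested features 42.6% passed, 20.2% as higher and 22.4% as lower in replicate 2, so a pass is common in this test. It weighs reads of 2 libraries against counting error and says nothing of a condition.

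Against the spread of other miRNAs these differences were moderate. Over the 244 features with a mean of at least 100 reads, the log2 ratio had an SD of 0.26 around a median of -0.0020. A larger ratio in size was found in 30 of these features for Mir33, in 83 for the Mir378a reads and in 93 for Mir122. The similar log2 ratios of Mir122 and Mir378a, with very different p, rested on 208 and 288 reads in one case and on 12725 and 17754 in the other.

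**Figure D4:**
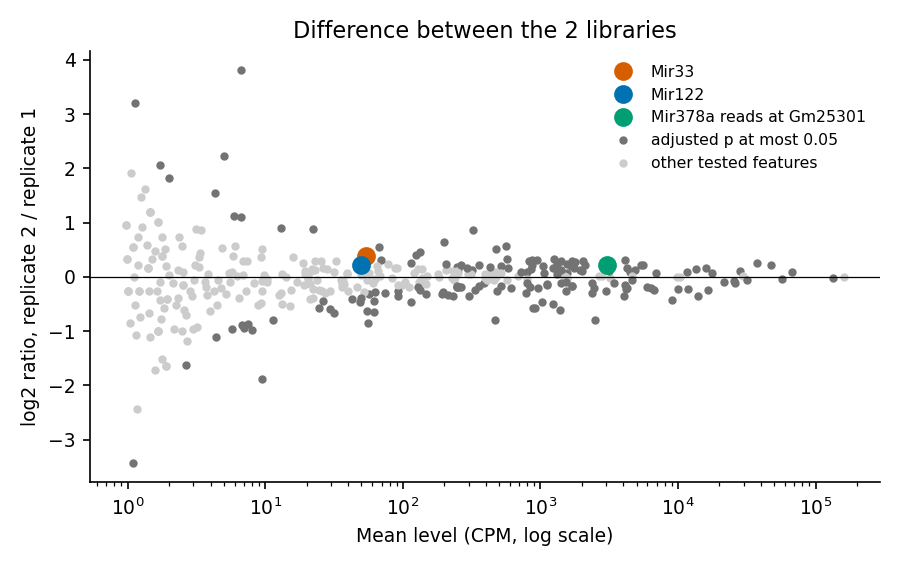
Log2 ratio of replicate 2 to replicate 1 against the mean level in CPM (log axis) for features with 10 or more reads over both libraries. Dark points passed the exact test at an adjusted p of 0.05, pale points did not, and 1 feature with 0 reads in a library is not drawn. Mir33 at 0.38, Mir122 at 0.21 and the Mir378a reads at 0.22 all lie above 0.

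The relatives of Mir378a were low in the counted reads. Mir378b had 1 read in each library, Mir378c had 8 and 9 reads in replicates 1 and 2, and Mir378d had 6 and 9. Together they had 15 and 19 reads, which is 0.118% and 0.107% of the number on Mir378a. Mir378c and Mir378a share a stretch of at least 20 bases, and reads that fit several places are in no row. The levels of both can therefore be too low, by an amount that was not measured. Mir378b and Mir378d share no such stretch with another miRNA gene, and neither do Mir33 and Mir122.

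Rows hosted by genes of lipid or energy metabolism gave a second reference, which holds Mir33 itself. Of the 6 rows in Srebf1, Srebf2, Pank1, Pank2 and Pank3, 4 had at least 10 reads in each library. Over all rows that share was 15.6%. Mir107, in Pank1, was the highest with 7190 and 8361 reads in replicates 1 and 2, or 1564 ± 32.0 CPM (SD, n = 2). Mir33 followed, and was lower than Mir107 by a log2 ratio of -4.87 ± 0.30. Mir103-2, in Pank2, stood at 29.8 ± 8.46 CPM and Mir103-1, in Pank3, at 3.20 ± 1.40 CPM. Both encode miR-103-3p, and they share stretches with each other and with Mir107, so these 3 counts can be too low. Srebf1, the lipogenic relative of Srebf2, hosts Mir6921 with 1 and 5 reads and Mir6922 with 1 read in each library. The Mir378a reads from Ppargc1b exceeded Mir107 by 0.95 ± 0.19 on the log2 scale.

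Other miRNAs with known targets in cholesterol and lipid transport were read next. Of 23 such rows, 21 had at least 10 reads in each library, and their median level was 251 CPM. Over all 1973 rows the share was 15.6% and the median 0 CPM, but 1306 of those rows had no own-strand read, and the list was drawn from well-studied miRNAs with earlier results known. Nothing particular to the list is read from this. Mir33 was exceeded by 14 of them and Mir122 by 15, while 2 exceeded the Mir378a reads. The highest were Mir106b at 3136 CPM, Mir27b, a regulator of lipid genes, at 3080 CPM, and Mir145a at 1554 CPM. Mir106b, Mir145a and Mir144 are, like Mir33, known to act on Abca1. A shared 20-base stretch is held by 11 of the 23. In the exact test between the libraries, 7 of the 23 were called higher and 1 lower in replicate 2, against 20.2% and 22.4% of all tested features, with a median log2 ratio of 0.08 against -0.01 over all tested features.

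Of 14 rows known from insulin and glucose metabolism, 11 had at least 10 reads in each library, and the median was 27.9 CPM. Mir143, which also marks smooth muscle, led at 67837 CPM, followed by Mir375, a miRNA of endocrine cells, at 2112 CPM and Mir107. Mir33 and Mir122 were each exceeded by 6 of the 14, and the Mir378a reads by Mir143 alone. Of 17 rows known from brown fat, muscle or mitochondrial energy use, 12 had at least 10 reads in each library, 2 had no read, and the median was 52.1 CPM, close to the level of Mir33. They were led by Mir182 at 2449 CPM, Mir455 at 1788 CPM and Mir203 at 1227 CPM, and 0 of them exceeded the Mir378a reads. In this list 6 of the 17 hold such a stretch. In the same exact test between the libraries, 3 rows were called higher and 3 lower in replicate 2 of 11 tested in the insulin list, and likewise 3 and 3 of 13 tested in the energy list. With 42.6% of all tested features called, both counts are close to the background.

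**Figure D5:**
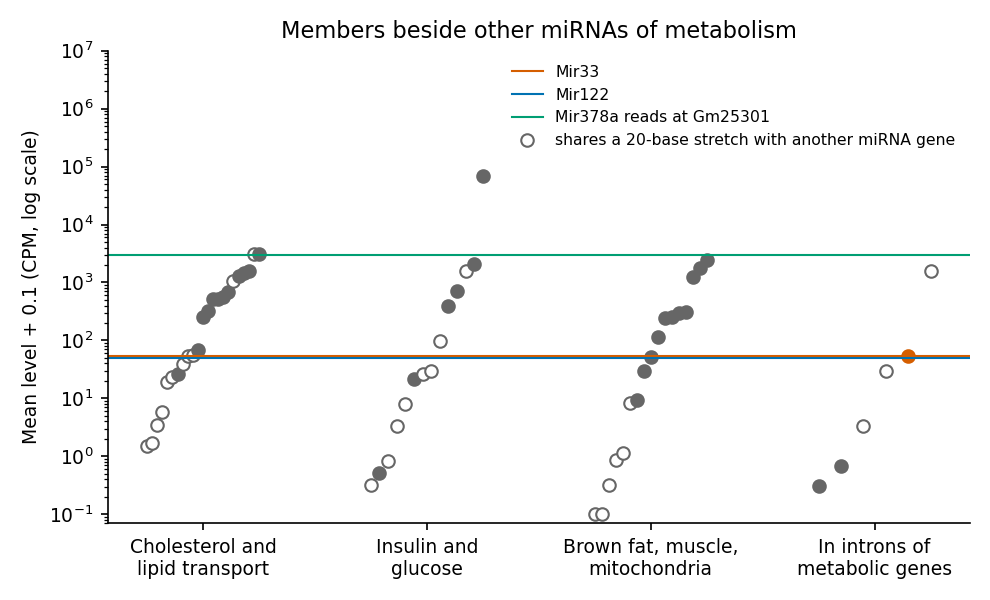
Mean level in CPM, plus 0.1 and on a log axis, of each row in the 4 groups of metabolic miRNAs, 1 point per row in rising order. Open points share a 20-base stretch with another miRNA gene, the orange point is Mir33, and the lines mark the members. The line of the Mir378a reads lies above all but 3 points, and the lines of Mir33 and Mir122 run through the middle of the groups.

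Markers of the tissues in which the members are best known were read beside them. Lung epithelium rows were read first, and without another tissue they do not test the labelled one. All 8, among them Mir449a and Mir429, had at least 10 reads in each library, against 15.6% of all rows. Their summed level was 54657 and 54669 CPM in replicates 1 and 2. Of 6 hepatocyte rows, Mir122 included, 4 had at least 10 reads in each library, and their summed levels were 753 and 675 CPM in replicates 1 and 2. Most of this was Mir148a at 520 ± 44.2 CPM (SD, n = 2), and Mir192 stood at 92.5 ± 6.48 CPM. Mir194-2 stood at 50.0 ± 9.47 CPM, close to Mir122, while Mir194-1 had 7 and 11 reads. Both Mir194 rows hold a 20-base stretch shared with another miRNA gene, so their counts can be too low. Mir802, another miRNA of liver, had 3 and 1 reads. While Mir122 was 1.16 times as high in replicate 2, the sum of the list, mostly Mir148a, was lower there. The part of hepatocyte RNA in the Mir122 level was not tested.

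Beside Mir378a, the 4 brown fat rows summed to 1652 and 1985 CPM in replicates 1 and 2, nearly all of it Mir455, which is also a miRNA of cartilage. Mir193b stood at 29.8 ± 3.77 CPM (SD, n = 2), and Mir365-1 and Mir365-2 had at most 6 reads in a library. Both Mir365 rows hold a 20-base stretch shared with another miRNA gene, so their low counts set no limit on them. The 7 striated muscle rows summed to 416 and 455 CPM, with Mir208b at 299 ± 6.33 CPM and Mir208a at 114 ± 14.4 CPM. Mir206 had 41 and 92 reads in replicates 1 and 2, and Mir499 had 37 and 57. Mir1a-1, Mir133a-1 and Mir133a-2, the defining muscle miRNAs, were at 0 reads in both libraries, but all 3 hold stretches found elsewhere, so this count sets no limit on them. The sums of both lists and the Mir378a reads were higher in replicate 2. In the brown fat list this was Mir455 alone, since Mir193b, Mir365-1 and Mir365-2 had lower CPM in replicate 2. The part of fat or muscle RNA in the Mir378a level was not tested. In whole lung, fewer cells of a type and less RNA per cell cannot be told apart.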

How the data were processed

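Small RNA under 30 bases, per the labels, was sequenced from 2 lungs of each of 2 newborn pups. The authors deposited whole-number counts per miRNA gene, not normalized, on mm10 with GENCODE M4 per the deposited description. The aligner, the counter and any filters were not given in the sources used here. The tables have no header. Columns 3 and 4 add up to column 2 in every gene row, and column 3, with 98.2% and 98.0% of column 2, was taken as own-strand and column 4 as opposite-strand. No source states this, and the overlap of column 4 reads with miRNAs lacking a row was also used, so each statement on strand rests on this reading. Rows naming no gene were left out of the totals. Own-strand totals were 4532902 and 5426081 reads in replicates 1 and 2. Reads that fit several places, 34.6% and 36.7% of 8277063 and 10391718 reads, are in no gene row.

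Identifiers were matched without version to GENCODE M21, whose assembly GRCm38 is mm10 (1894 of 1973). Stretches of 20 bases were searched among M21 miRNA transcripts. A feature is a row on 1 strand. Detection needed at least 10 reads in each library and testing at least 10 in both together, by a two-sided exact binomial test against the own-strand totals (SciPy 1.17.1), with Benjamini-Hochberg adjustment at 0.05. The test was checked on simulated data with counting noise only. That check does not cover libraries that differ beyond such noise. A limit for 0 reads is 3 reads. The libraries differed beyond counting noise (chi-square/df of 75.2, df of 374), which does not show that they are separate animals. They were counted as 2 samples by their pup numbers. Nothing but pup numbers separates them, and the p-values weigh their difference against counting error only. They do not measure the spread between libraries or animals. TMM scaling used edgeR 4.0.16, and size factors used DESeq2 1.42.0.

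Members and lists were chosen with earlier results of these data known, and the lists rest on general knowledge of targets and tissues. Some rows stand in more than 1 list: 1 hepatocyte marker is also in the lipid list and 1 in the insulin list, 1 lung marker is in the insulin list, 4 brown fat and 5 muscle markers are in the energy list, and 3 Pank rows are in the insulin list. Mir696 has no matching row. Named genes were the members, their neighbours in level, the 3 nearest in log2 level, the 3 highest of each metabolic list, the 5 rows with the most opposite-strand reads, and the miR-378 relatives. Marker rows and the remaining hosted rows were named after their values were seen.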

Additional observations from a re-analysis of the deposited data

How the results depend on the processing

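Of 59 recomputed values, 6 moved and 53 did not. Among the 53, tested differences kept their direction and side of the threshold, and counts stayed within 1.5 times the original. Levels and ratios among them moved by less than the SD, and the strand share did not change. Part of this was fixed in advance. With 2 libraries, leaving 1 out always shifts a mean by less than the SD. Counting both strands changes no member, since each had 0 reads on its other strand. Scaled to all reads of the file, unplaced reads included, the means were 28.7 CPM for Mir33, 26.4 CPM for Mir122 and 1623 CPM for the Mir378a reads, because the total is larger; the ratios between members do not depend on scaling. Without rows that hold a shared 20-base stretch, the detected rows were 12 for lipid transport, 5 for insulin and glucose and 1, Mir33, for the hosted rows, because fewer rows are counted. Leaving out a replicate gave 46.8 to 61.0 CPM for Mir33, 45.9 to 53.1 CPM for Mir122 and 2807 to 3272 CPM for the Mir378a reads.

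The call on Mir33 between the libraries held under TMM scaling, DESeq2 size factors, either-strand scaling and no filter beyond 1 read, with adjusted p from 0.00328 to 0.0139, and Mir122 did not pass in any of them (0.139 to 0.379, exact binomial test). The number of features past the test ranged from 155 to 176 against 167. The 155 were of 717 tested with no filter beyond 1 read, a smaller share than in the other settings, each with 392 tested. No paired analysis was possible because the samples form 1 group. Depth limits Mir33 and Mir122, at 208 to 331 reads a library, more than Mir378a.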
